A study of Mus musculus with 8 samples.

Results

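The 33 genes described here form 2 groups that cells switch on quickly: 22 immediate-early genes and 11 heat shock genes. They were chosen by symbol, and each was read array by array across genotype, cell subset and replicate number. Of the 33, 32 had a named probe on the Illumina bead arrays, and 29 passed the filter on dim probes, 20 immediate-early and 9 heat shock genes, out of 14392 genes tested in all. The arrays measured total RNA of medullary thymic epithelial cells (mTECs), the thymic cells that show self antigens to developing T cells. The 4 groups, with 2 biological replicates each, were ko CD80high, wt CD80high, ko CD80low and wt CD80low mTECs. The ko cells came from mice lacking Hipk2, a serine/threonine kinase, in thymic epithelial cells (TECs), and the wt cells from wild-type controls of the same matings. Mature mTECs carry much of the costimulatory protein CD80 at their surface, and immature ones little. The promoter that drove the TEC-restricted deletion, the age of the mice and whether animals were pooled are not given in the sources used here.

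Immediate-early genes are transcribed within minutes of a stimulus, without new protein synthesis, when MAP kinases activate factors such as SRF that are already bound at their promoters. Most encode transcription factors, among them the AP-1 subunits of the Fos and Jun families, the Egr zinc finger proteins and the Klf and Nr4a factors, and others encode inhibitors that end the signal. Heat shock genes encode chaperones that refold damaged proteins, and the inducible ones are driven by heat shock factors that bind heat shock elements. In many tissues both groups are also known to be induced while tissue is digested and cells are sorted, and no measure of that handling was among the values used here.

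All levels below are log2 intensities of 1 probe per gene after background correction and quantile normalisation, and probes of different genes are not set against each other. Between 44.3% and 49.8% of all probes lay above background on an array, and replicate arrays correlated at r = 0.981 in ko CD80high, 0.984 in wt CD80high, 0.968 in ko CD80low and 0.965 in wt CD80low cells. Cd80 was at 9.90 to 10.76 on the CD80high arrays, against 5.10 to 5.82 on the CD80low arrays, so the subset labels and the transcript ran the same way. The chosen Hipk2 probe was at 7.12 to 7.98 on the ko arrays, against 7.03 to 7.52 on the wt arrays. A second, dimmer Hipk2 probe was lower in ko without overlap in both subsets, at 5.60 and 5.59 in ko, against 5.71 and 5.85 in wt CD80high cells, and at 6.26 and 5.79 in ko, against 6.46 and 6.62 in wt CD80low cells. The position of either probe relative to the deleted part of the gene is not known, so neither checks the genotype labels. The CD80low replicate 1 arrays stood apart in thymocyte transcripts, with a mean over 13 tested marker genes of 9.26 in ko and 9.28 in wt cells, against 7.24 and 7.28 in the replicate 2 arrays of the same subset. Labels call the replicates biological without naming animals, so the p-values measure the spread between these samples. Permuting 2 arrays against 2 exactly gives no p below 0.333, so the tests below are those of a limma fit across all genes.

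No test was made for 4 members. Nr4a1, an orphan nuclear receptor, had deposited intensities of 96.73 to 118.5 and lay above background on 2 of 8 arrays. Ier5, an immediate early response gene, had 95.85 to 114.62 and also lay above background on 2 arrays. The probes of Dnaja1, a co-chaperone of Hsp70, were above background on 0 and 3 arrays. Hsph1, a member of the Hsp110 chaperones, had no probe under that symbol. These values say only that Nr4a1, Ier5 and Dnaja1 lay near background.

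Promoter sequence was set beside the members because the results below are read by group. RefSeq windows of build GRCm38.p6 were available for 27 of the 33 members, and the 250 bases before each start site were searched on both strands. The heat shock element was spelled GAANNTTC or TTCNNGAA and was found for 7 of 9 heat shock genes with a window and for 2 of 18 immediate-early genes, Jun and Egr2. Over all genes with a window, 14.5% held it. The CArG box, the site of SRF, was found for Egr2 and Zfp36, against 1.62% of all genes. The cyclic AMP response element TGACGTCA was found for Dusp1 (1.77% of all genes), the AP-1 site TGANTCA for Bag3 (7.82%) and the STAT site TTCNNNGAA for Zfp36 and Socs3 (8.13%). A match is a description of these letters and not of binding, and a window without a match says nothing of the factor.

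The upstream sequences of 5 heat shock genes are given because they include the genes that differed most between replicate numbers, with heat shock element matches in capitals. Hspa1a (chr17:34972157-34972406, minus strand) and Hspa1b (chr17:34959239-34959488, minus strand) are neighbouring copies that encode nearly the same inducible Hsp70. Their windows were identical at 247 of 250 positions (98.8%), and the single match lay 104 to 97 bases before the start site in both. The Hspe1 window (chr1:55087898-55088147, plus strand) holds 3 overlapping matches, which the head-to-head neighbour Hspd1 shares. The Hspb1 window (chr5:135887669-135887918, plus strand) holds 2. The Dnajb1 window (chr8:83607925-83608174, plus strand) holds 0 and is shown for contrast.
Hspa1a: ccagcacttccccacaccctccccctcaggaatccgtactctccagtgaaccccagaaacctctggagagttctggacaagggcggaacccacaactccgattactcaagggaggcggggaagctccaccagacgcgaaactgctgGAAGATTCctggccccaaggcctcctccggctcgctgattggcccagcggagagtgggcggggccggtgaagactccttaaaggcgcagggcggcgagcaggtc
Hspa1b: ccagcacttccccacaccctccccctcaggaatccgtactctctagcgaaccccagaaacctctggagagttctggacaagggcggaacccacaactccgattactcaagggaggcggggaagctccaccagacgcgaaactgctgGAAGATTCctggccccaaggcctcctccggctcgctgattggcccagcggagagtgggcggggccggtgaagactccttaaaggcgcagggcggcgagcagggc
Hspe1: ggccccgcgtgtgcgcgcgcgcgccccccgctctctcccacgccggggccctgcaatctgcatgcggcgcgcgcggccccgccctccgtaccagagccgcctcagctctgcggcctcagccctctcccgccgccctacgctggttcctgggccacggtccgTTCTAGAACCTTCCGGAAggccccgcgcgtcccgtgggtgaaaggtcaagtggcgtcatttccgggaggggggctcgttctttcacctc
Hspb1: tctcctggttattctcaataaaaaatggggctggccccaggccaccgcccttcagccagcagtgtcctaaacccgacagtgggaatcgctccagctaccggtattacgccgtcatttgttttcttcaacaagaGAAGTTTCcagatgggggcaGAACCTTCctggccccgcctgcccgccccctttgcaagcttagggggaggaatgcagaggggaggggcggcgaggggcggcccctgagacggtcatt
Dnajb1: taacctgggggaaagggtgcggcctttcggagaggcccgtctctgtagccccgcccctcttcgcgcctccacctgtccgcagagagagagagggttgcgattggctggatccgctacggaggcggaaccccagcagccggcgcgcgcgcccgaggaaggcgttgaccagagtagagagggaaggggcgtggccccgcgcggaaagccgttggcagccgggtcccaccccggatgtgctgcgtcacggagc

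For the immediate-early genes, Socs3 is shown because it had the largest difference between the subsets among the members, and Egr2 because it held the CArG box. The Socs3 window (chr11:117969367-117969616, minus strand) has its STAT site in capitals, 154 to 146 bases before the start site. The Egr2 window (chr10:67537316-67537565, plus strand) belongs to 1 of 5 annotated start sites and has its CArG box in capitals, 72 to 63 bases before the start. A heat shock element match of the same Egr2 window, 131 to 124 bases before the start, is left in lower case.
Socs3: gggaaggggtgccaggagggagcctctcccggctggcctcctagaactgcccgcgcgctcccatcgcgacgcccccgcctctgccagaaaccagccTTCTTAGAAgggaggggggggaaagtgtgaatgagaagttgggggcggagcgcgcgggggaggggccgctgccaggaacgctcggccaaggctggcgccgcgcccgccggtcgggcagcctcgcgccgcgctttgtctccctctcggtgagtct
Egr2: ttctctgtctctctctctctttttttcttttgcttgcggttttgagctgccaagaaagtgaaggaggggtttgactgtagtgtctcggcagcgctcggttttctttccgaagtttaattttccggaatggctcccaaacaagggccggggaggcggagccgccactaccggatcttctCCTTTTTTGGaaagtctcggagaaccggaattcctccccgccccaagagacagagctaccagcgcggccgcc

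**Figure D1:**
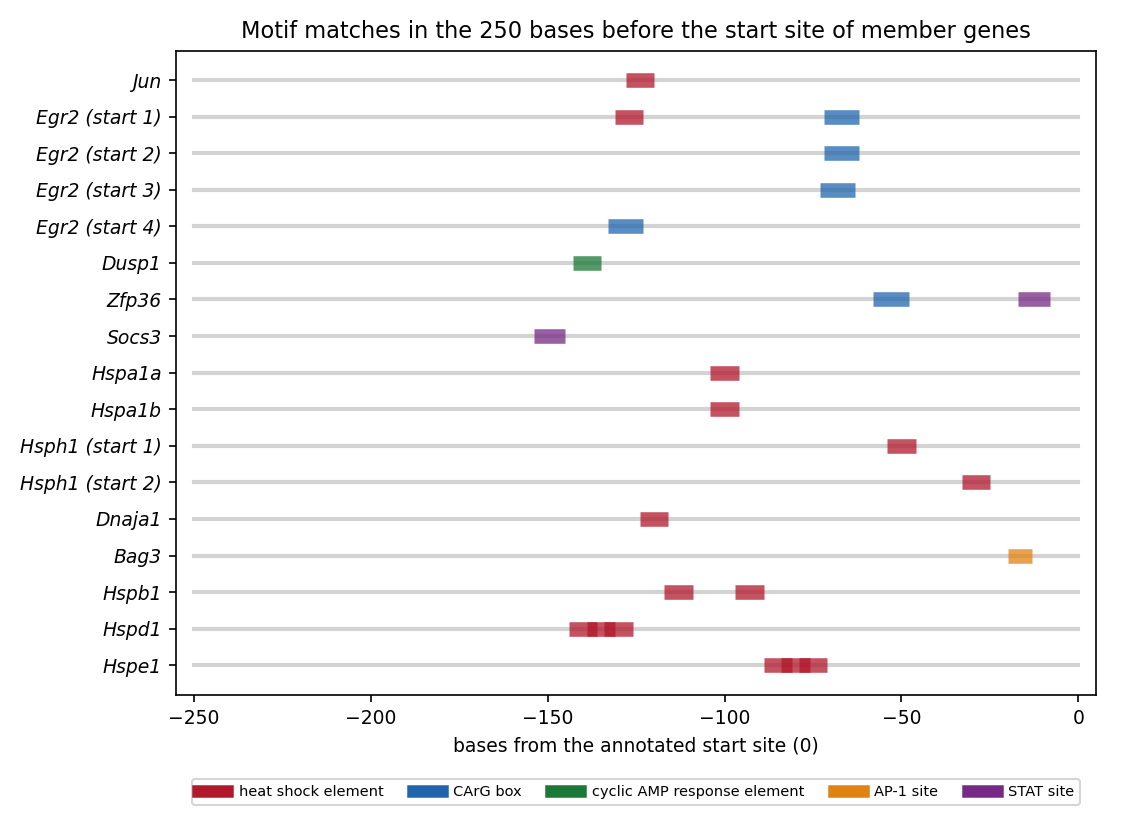
Motif matches in the 250 bases before the start sites of members with at least 1 match; the x axis gives bases from the start site, each grey line is 1 annotated start site and coloured blocks are matches. Heat shock element matches fill the rows of the heat shock genes other than Bag3, and the CArG box stands in the Egr2 and Zfp36 rows.

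The first comparison asked how the members differ between mature and immature mTECs. Of the immediate-early transcripts, 13 were lower in CD80high cells in each genotype, most of all Socs3, Klf2, Atf3, Jun, Ier3 and Fosb. In ko cells, 14 of the 29 members were lower in CD80high than in CD80low cells at an adjusted p under 0.05 (limma, Benjamini-Hochberg over all genes) and 0 were higher, where 18.8% of all genes were lower. In wt cells, 16 were lower and 0 higher, where 19.4% of all genes were lower. The lower members were 13 immediate-early and 1 heat shock gene in ko cells, and 13 immediate-early and 3 heat shock genes in wt cells. The median difference over the 29 members was -0.83 in ko and -0.90 in wt cells on the log2 scale, beside -0.03 and -0.02 over all genes. The same 12 genes were called in both genotypes: Fos, Fosb, Jun, Jund, Atf3, Egr2, Klf2, Klf4, Socs3, Ier2, Ier3 and Bag3. The arrays of the subsets did not overlap for 18 of 20 immediate-early genes that were lower in ko cells and for 19 of 20 in wt cells, where 36.9% and 36.8% of all genes were lower without overlap. In RNA of sorted cells, fewer cells of a type and less RNA per cell cannot be told apart.

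**Figure D2:**
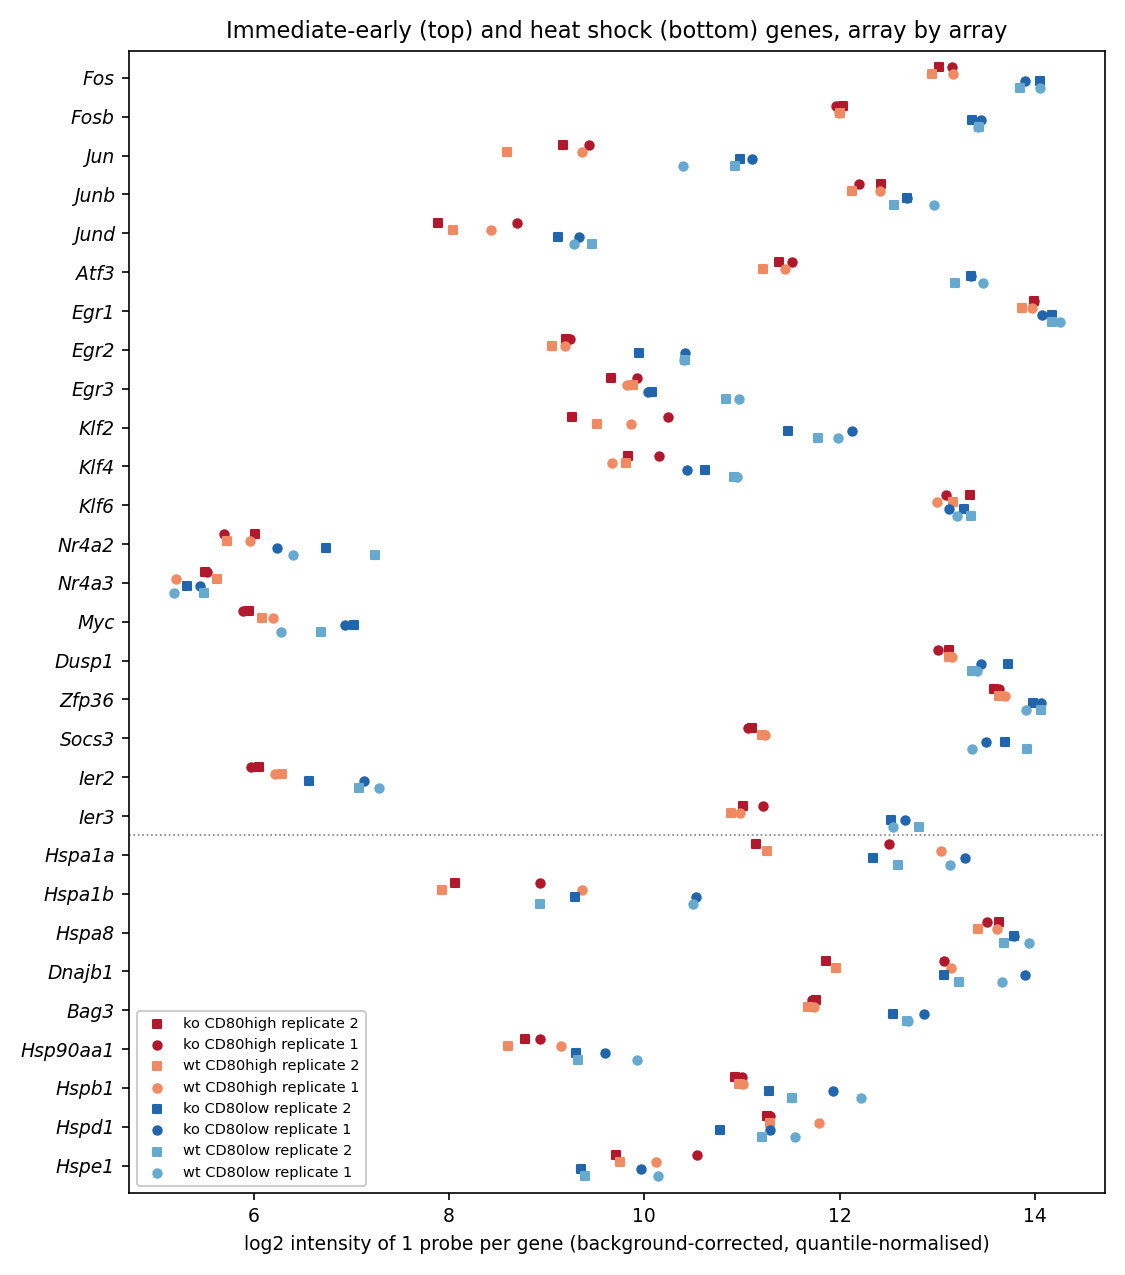
Log2 intensity (x axis) of the 29 tested members on each of the 8 arrays, with CD80high arrays in red and orange, CD80low arrays in blue, squares for replicate 2 and circles for replicate 1. Levels are read within a row. For Socs3 the 4 CD80high arrays lie between 11.06 and 11.24, all below the CD80low arrays.

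Among the AP-1 subunits, Fosb, a Fos family protein that pairs with Jun proteins, was at 12.03 and 11.96 on the ko CD80high arrays, against 13.35 and 13.44 on the ko CD80low arrays. The wt CD80high arrays were at 11.99 and just above it, against 13.43 and 13.42 on the wt CD80low arrays. The replicates of Fosb nearly coincided, and the difference was -1.40 ± 0.178 (SE, adjusted p = 0.000138, limma) in ko and -1.43 ± 0.178 (adjusted p = 0.000119) in wt cells. Fos, the founding member of the family, was at 13.02 and 13.15 on the ko CD80high arrays, against 14.05 and 13.89 on the ko CD80low arrays. On the wt arrays it was at 12.94 and 13.16 in CD80high, against 13.84 and 14.05 in CD80low cells. The subsets did not overlap, and Fos fell, with differences of -0.89 in ko (adjusted p = 0.00439) and -0.90 in wt cells (0.00397).

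Jun, the main partner of Fos in AP-1, was at 9.17 and 9.43 on the ko CD80high arrays, against 10.98 and 11.10 on the ko CD80low arrays. The wt arrays were at 8.59 and 9.36 in CD80high, against 10.93 and 10.39 in CD80low cells. Jun was 3.34-fold lower in ko (-1.74 ± 0.280, adjusted p = 0.000682) and 3.22-fold lower in wt CD80high cells (-1.69 ± 0.280, 0.000817), and its wt replicates lay further apart than its ko replicates. Jund, an AP-1 subunit that quiescent cells already express, fell as well, with differences of -0.93 in ko (0.0199) and -1.13 in wt cells (0.0072). Its ko call was lost without ko CD80low replicate 1 or ko CD80high replicate 2, and its wt call without wt CD80high replicate 2. Junb, known as a weaker activator than Jun, differed by -0.38 ± 0.213 in ko and -0.49 ± 0.213 in wt cells and passed in neither, but it was called for the mean over both genotypes (-0.44, adjusted p = 0.0306). Atf3, a stress-induced factor that dimerises with Jun proteins, was at 11.38 and 11.51 on the ko CD80high arrays, against 13.34 on both ko CD80low arrays. Atf3 in wt cells was at 11.21 and 11.44 in CD80high, against 13.18 and 13.46 in CD80low cells. It was 3.74-fold lower in ko and 3.98-fold lower in wt CD80high cells (adjusted p = 3.16e-05 and 2.34e-05).

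The Egr factors are read next. Egr2, a zinc finger factor induced through SRF, was at 9.20 and 9.24 on the ko CD80high arrays, against 9.95 and 10.41 on the ko CD80low arrays. The wt arrays were at 9.05 and 9.19 in CD80high, against 10.42 and 10.40 in CD80low cells. Egr2 fell, with differences of -0.96 in ko (adjusted p = 0.00407) and -1.29 in wt cells (0.000635). Egr3, its close relative, was at 9.66 and 9.92 on the ko CD80high arrays, against 10.08 and 10.03 on the ko CD80low arrays. In wt cells Egr3 was at 9.88 and 9.82 in CD80high, against 10.83 and 10.97 in CD80low cells. It was called in wt cells (-1.05 ± 0.188, adjusted p = 0.00128) and not in ko cells (-0.27 ± 0.188, adjusted p = 0.281), and the test of the difference between these values is given with the genotypes. Egr1, a classic target of MAP kinase signalling, lay between 13.87 and 13.99 on the CD80high arrays, against 14.07 to 14.26 on the CD80low arrays. Its arrays did not overlap, but the differences of -0.13 in ko and -0.30 in wt cells passed in neither genotype nor for their mean (adjusted p = 0.176).

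Klf2, a zinc finger factor known from quiescent T cells and endothelium, was at 9.25 and 10.24 on the ko CD80high arrays, against 11.47 and 12.13 on the ko CD80low arrays. Klf2 in wt cells was at 9.51 and 9.86 in CD80high, against 11.78 and 11.99 in CD80low cells. Klf2 was 4.14-fold lower in ko and 4.58-fold lower in wt CD80high cells (adjusted p = 0.000672 and 0.000422). Klf4, a regulator of epithelial differentiation, was at 9.83 and 10.15 on the ko CD80high arrays, against 10.62 and 10.44 on the ko CD80low arrays. Klf4 in wt cells was at 9.81 and 9.67 in CD80high, against 10.91 and 10.95 in CD80low cells. Klf4 was 1.45-fold lower in ko (adjusted p = 0.0495) and 2.29-fold lower in wt cells (0.000762), and the ko call was lost whichever of the 8 arrays was left out. The other 2 probes of Klf4 gave -1.33 and -1.45 in ko and -1.55 and -1.49 in wt cells, so the probes disagreed on the size in ko cells. Klf6, a ubiquitous factor of the same family, differed by 0.02 in ko and -0.19 in wt cells with neither called.

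Nr4a2, an orphan nuclear receptor, was called lower in wt cells (-0.98 ± 0.294, adjusted p = 0.022) and differed by -0.64 ± 0.294 in ko cells (0.108). The wt call was lost without wt CD80low replicate 2 or either wt CD80high array. Nr4a3, a receptor of the same family, was above background on 5 of 8 arrays and differed by 0.13 in ko and 0.08 in wt cells. Myc, a driver of growth and ribosome synthesis, was at 5.95 and 5.89 on the ko CD80high arrays, against 7.03 and 6.94 on the ko CD80low arrays. In wt cells it was at 6.09 and 6.20 in CD80high, against 6.69 and 6.28 in CD80low cells. Myc was called lower in ko cells (-1.06 ± 0.201, adjusted p = 0.00194), and the wt value of -0.34 ± 0.201 did not pass (0.201).

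Several members end the signal that induces the others. Socs3, which binds cytokine receptors and JAK kinases and is a target of STAT factors, was at 11.10 and 11.06 on the ko CD80high arrays, against 13.69 and 13.49 on the ko CD80low arrays. In wt cells it was at 11.21 and 11.24 in CD80high, against 13.92 and 13.36 in CD80low cells. Socs3 was 5.71-fold lower in ko (-2.51 ± 0.220, adjusted p = 1.09e-05) and 5.33-fold lower in wt CD80high cells (-2.41 ± 0.220, 1.44e-05). Ier3, an early response gene linked to survival signalling, was at 11.01 and 11.21 on the ko CD80high arrays, against 12.52 and 12.67 on the ko CD80low arrays. In wt cells Ier3 was at 10.88 and 10.98 in CD80high, against 12.82 and 12.54 in CD80low cells. Ier3 fell, with differences of -1.48 in ko (0.000177) and -1.75 in wt cells (5.48e-05), and no array of the CD80high cells reached the CD80low range.

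Ier2, a nuclear protein of the same early wave, fell, with differences of -0.83 in ko (adjusted p = 0.0124, limma) and -0.93 in wt cells (0.00691), with the ko call lost without replicate 1 of either ko subset. Dusp1, the phosphatase that switches off p38 and JNK, fell by 0.52 in ko cells (0.0465) and differed by -0.25 ± 0.188 in wt cells (0.32). That ko call was lost on leaving out any 1 of the 4 ko arrays or either wt CD80high array. Zfp36, known as tristetraprolin, which speeds the decay of cytokine mRNAs, differed by -0.42 in ko and -0.33 in wt cells and was called only for the mean over both genotypes (-0.37, 0.029). Over that mean, 22 of the 29 members were called lower, 17 immediate-early and 5 heat shock genes, where 27.7% of all genes were lower. Of these calls over both genotypes, that of Zfp36 was lost on leaving out any single array other than wt CD80low replicate 1. The call of Junb was lost without wt CD80high replicate 2, ko CD80high replicate 1, wt CD80low replicate 1 or either ko CD80low array. That of Dusp1 was lost without either wt CD80high array, ko CD80high replicate 1, ko CD80low replicate 2 or wt CD80low replicate 1.

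**Figure D3:**
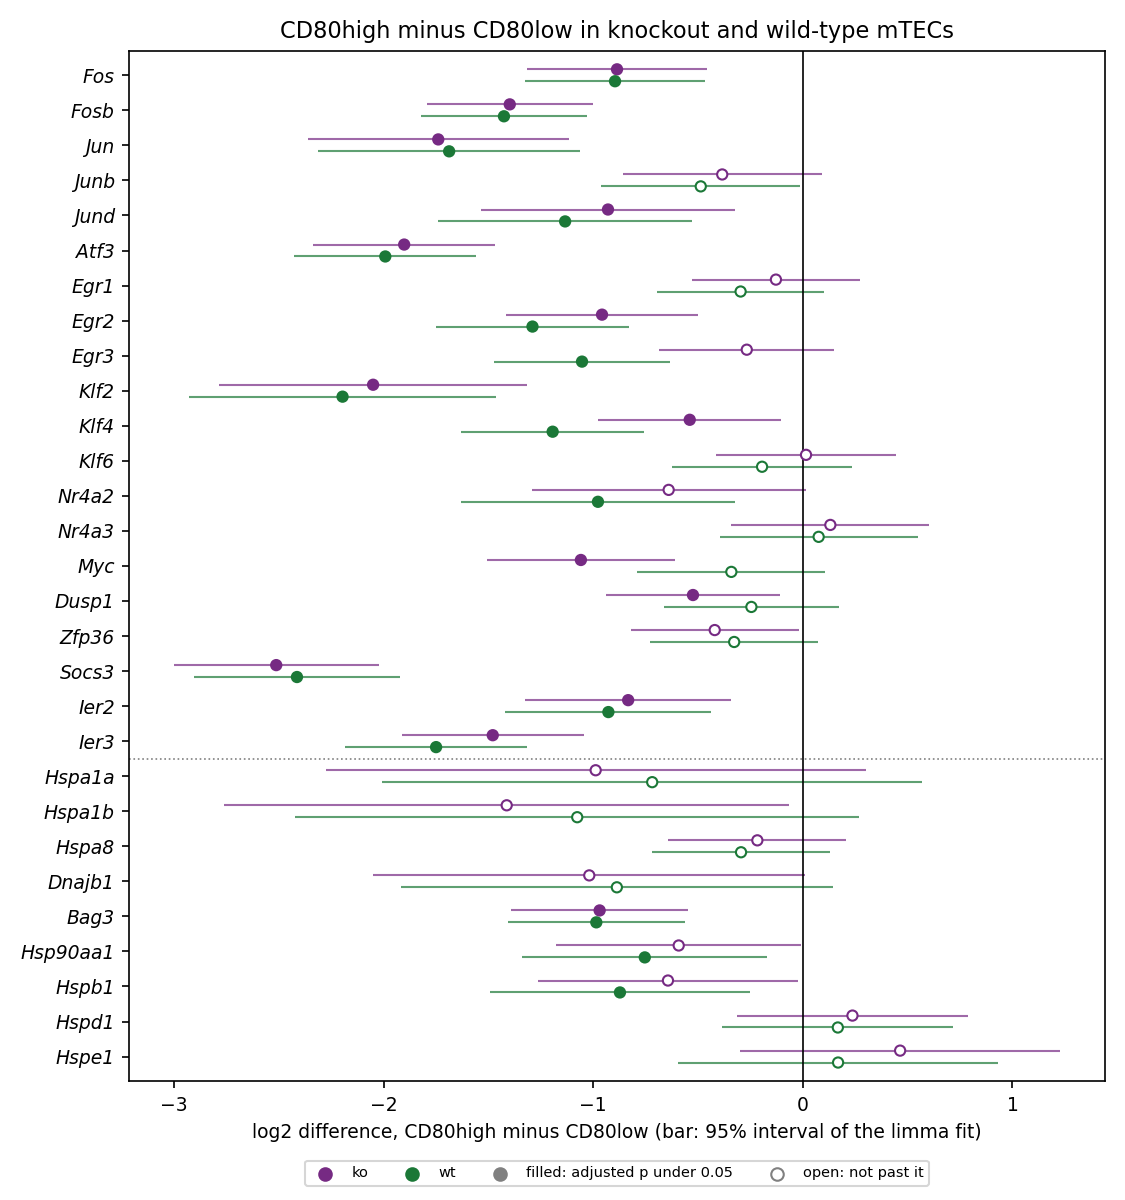
Log2 difference between CD80high and CD80low mTECs (x axis) for the 29 tested members in ko (purple) and wt (green) cells; bars are 95% intervals of the limma fit, and filled points passed an adjusted p of 0.05. Socs3 lies farthest left in both genotypes, at -2.51 in ko and -2.41 in wt cells, and Hspd1 and Hspe1 lie right of 0.

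The heat shock genes were less uniform. Bag3, a co-chaperone of Hsp70 that also serves selective autophagy, was at 11.76 and 11.71 on the ko CD80high arrays, against 12.54 and 12.87 on the ko CD80low arrays. In wt cells it was at 11.68 and 11.73 in CD80high, against 12.69 and 12.70 in CD80low cells. Bag3 fell, with differences of -0.97 in ko (adjusted p = 0.00235) and -0.99 in wt cells (0.00208), and was the only heat shock gene called in each genotype in the fit of group means, which has no term for the replicate number. Hspb1, a small chaperone that binds unfolded protein, was called in wt cells (-0.87 ± 0.279, 0.0287) and differed by -0.64 ± 0.279 in ko cells (0.09). Hsp90aa1, the inducible cytosolic Hsp90, was likewise called in wt cells (-0.75 ± 0.262, 0.0411) and differed by -0.59 ± 0.262 in ko cells (0.097). A second, dimmer probe of Hsp90aa1, above background on all 8 arrays, gave only -0.18 in wt and -0.45 in ko cells. Both wt calls were lost without wt CD80low replicate 1 or wt CD80high replicate 2, that of Hspb1 also without wt CD80high replicate 1, and that of Hsp90aa1 also without either ko CD80high array. Over both genotypes Hsp90aa1 (-0.67, adjusted p = 0.0106) was not called without wt CD80high replicate 2, and Hspb1 (-0.76, 0.00773) stayed called whichever single array was left out.

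The inducible Hsp70 genes and their co-chaperone had wide spreads within groups in the fit of group means, which include the difference between replicate numbers. With a replicate block, more heat shock genes were called in each genotype, as given at the end without the share of all genes called. Dnajb1, the Hsp40 partner of Hsp70, differed by -1.02 ± 0.464 in ko and -0.89 ± 0.464 in wt cells, and Hspa1b by -1.41 ± 0.606 in ko and -1.08 ± 0.606 in wt cells. Neither passed within a genotype, and both were called for the mean over genotypes (adjusted p = 0.0299 each), which was lost without either CD80low replicate 1 array or either CD80high replicate 2 array. Between arrays of the same number, replicate 2 and then 1, the differences of Hspa1b were -1.23 and -1.60 in ko and -1.01 and -1.14 in wt cells. Those of Dnajb1 were -1.21 and -0.83 in ko and -1.26 and -0.52 in wt cells, so both genes were lower in CD80high cells at each number. Hspa1a differed by -0.99 ± 0.579 in ko and -0.72 ± 0.579 in wt cells and was not called. Hspa8, the constitutive Hsp70, differed by -0.22 in ko and -0.29 in wt cells. Its other probes gave 0.25 and -0.24 in ko and -0.002 and 0.37 in wt cells, so the probes disagreed on the direction. Hspd1 and Hspe1, the mitochondrial chaperonin and its lid, differed by 0.24 and 0.46 in ko and by 0.17 in wt cells for each gene, with neither called. A second probe of Hspd1 gave -0.16 in ko and 0.59 in wt cells, so its probes disagreed on the direction in ko cells.

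Markers of other cells differed between the same groups. The 13 tested of 18 thymocyte genes averaged 6.58 to 6.87 on the CD80high arrays, against 7.24 to 9.28 on the CD80low arrays, and 10 were called lower for the mean over genotypes. The 7 fibroblast genes averaged 6.13 to 6.40 on the CD80high arrays, against 7.16 to 7.36 on the CD80low arrays, and 5 of them were lower and 1 higher. The 5 tested of 7 endothelial genes averaged 6.29 to 6.57 in CD80high, against 6.63 to 7.10 in CD80low cells, with 2 lower. The 7 tested of 12 myeloid genes averaged 8.74 to 8.90 in CD80high, against 7.01 to 7.60 in CD80low cells, with 5 higher and 1 lower. The 6 cortical TEC genes averaged 6.86 to 7.32 in CD80high, against 8.02 to 8.84 in CD80low cells, with 4 lower and 1 higher. Of 7 tested erythroid genes 4 were higher and 0 lower, and the 1 tested of 6 B cell genes, Cd79b, was higher. All these calls are for the mean over genotypes, where 27.7% of all genes were lower and 28.8% higher. The part of these cells in the members' differences was not tested. Leaving out both CD80low replicate 1 arrays, which carried the highest thymocyte levels, left 1 array in each CD80low group. Only effect sizes are given for that setting, which was chosen after the data were seen. The median difference over the 29 members was then -0.63 in ko and -0.67 in wt cells. In ko cells Jund, Klf4 and Ier2 differed by -0.82, -0.63 and -0.55, against -0.93, -0.54 and -0.83 with all arrays. In wt cells Hspb1 and Hsp90aa1 differed by -0.52 and -0.45, against -0.87 and -0.75 with all arrays. Socs3 then differed by -2.61 in ko and -2.69 in wt cells, and Atf3 by -1.90 in ko and -1.85 in wt cells.

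Genes related to the members were read from the same fit. Of 41 other immediate-early genes tested, 17 were lower and 7 higher in ko CD80high cells, and 20 were lower and 6 higher in wt CD80high cells. Over all genes, 18.8% were lower and 22.1% higher in ko, and 19.4% lower and 22.4% higher in wt CD80high cells. Ccn1, a matrix protein induced by growth factors, fell, with differences of -2.70 in ko and -3.33 in wt cells (adjusted p = 3.13e-06 and 1.08e-06, limma). Id1, an inhibitor of basic helix-loop-helix factors and a BMP target, fell, with differences of -3.44 in ko and -3.59 in wt cells. Zfp36l1, an mRNA decay factor related to Zfp36, fell, with differences of -2.34 in ko and -2.62 in wt cells. Of 23 MAP kinase and SRF pathway genes, 8 were lower and 4 higher in each genotype. Their share of lower calls lay above that of all genes, and their share of higher calls was nearer to it. The epidermal growth factor receptor Egfr fell, with differences of -2.39 in ko and -2.21 in wt cells. Dusp6, a phosphatase that ERK signalling induces, fell, with differences of -2.54 in ko and -2.41 in wt cells.

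Of 36 other cytosolic and mitochondrial chaperones, 6 were lower and 1 higher in ko, and 5 lower and 1 higher in wt CD80high cells. The share of lower calls lay near that of all genes (18.8% in ko and 19.4% in wt). The share of higher calls lay below that of all genes (22.1% and 22.4%). The smallest p in each genotype was that of Serpinh1, a collagen chaperone of the endoplasmic reticulum counted in this list, which differed by -2.82 in ko and -2.66 in wt cells. Of the heat shock factors and their partner, 3 were tested and 0 were called in either genotype at an adjusted or an unadjusted p under 0.05. Of 16 endoplasmic reticulum chaperones tested, 5 were higher and 1 lower in ko, and 6 higher and 0 lower in wt CD80high cells, where 22.1% and 22.4% of all genes were higher. The other 10 were not called in ko cells, nor were 10 in wt cells. Creld2, a secreted partner of protein disulphide isomerases, was 2.94-fold higher in ko and 3.34-fold higher in wt cells. Sdf2l1, a cofactor of the chaperone BiP, was 2.87-fold higher in ko and 3.72-fold higher in wt cells.

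The second comparison asked what the loss of Hipk2 changes. Of the 29 members, 0 were called between ko and wt cells in CD80low, in CD80high or over both subsets (limma, adjusted p under 0.05), where 0.00695% of all genes, a single gene, were called in each. At an unadjusted p under 0.05, 2 members differed in CD80low cells, where 6.67% of all genes did, 0 in CD80high cells (1.56%) and 1 over both subsets (5.15%). The 95% interval of the difference stayed within a 2-fold change either way for 25 of 29 members in CD80low and for 26 of 29 in CD80high cells. The intervals that reached 2-fold were those of Hspa1a, Hspa1b and Dnajb1 in both subsets and of Egr3 in CD80low cells. The fit of group means has no term for the replicate number, by which Hspa1a, Hspa1b and Dnajb1 differed most. The intervals of these 3 genes therefore include the difference between replicate numbers. In CD80low cells the arrays of 2 members were lower in ko without overlap (15.7% of all genes) and those of 3 members higher (15.1%). In CD80high cells 5 members were lower without overlap (15.1%) and 4 higher (13%).

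In CD80low cells, Egr3 had the smallest p, with 10.08 and 10.03 on the ko arrays, against 10.83 and 10.97 on the wt arrays. The arrays did not overlap, and the difference was -0.84 ± 0.188 (95% interval -1.26 to -0.43, adjusted p = 0.205). The second probe of Egr3, above background on 5 of 8 arrays, gave -0.12. Myc was at 7.03 and 6.94 on the ko CD80low arrays, against 6.69 and 6.28 on the wt CD80low arrays, a difference of 0.50 ± 0.201 (adjusted p = 0.694). The next smallest p-values belonged to Klf4 at -0.40 ± 0.196 (0.799) and Ier2 at -0.33 ± 0.221 (0.964). The other 2 probes of Klf4 gave -0.23 and 0.03. Over both subsets the smallest p-values were those of Egr3 (-0.45 ± 0.133, adjusted p = 0.604), Ier2 (-0.28 ± 0.156), Jun (0.35 ± 0.198) and Hspd1 (-0.30 ± 0.175), the other three with an adjusted p of 1.00. A second Hspd1 probe gave 0.47 in CD80low and -0.28 in CD80high cells, against -0.34 and -0.27 for the chosen probe.

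In CD80high cells the 4 smallest p-values were those of Klf4 (0.25 ± 0.196), Jun (0.32 ± 0.280), Myc (-0.22 ± 0.201) and Hspd1 (-0.27 ± 0.248), each with an adjusted p of 1.00. The value of Jun was -0.063 without wt CD80high replicate 2. Socs3 differed by -0.14 in CD80high and by -0.05 in CD80low cells, and Atf3 by 0.11 and 0.02. The 95% interval of Fos ran from -0.40 to 0.46 in CD80high and from -0.41 to 0.45 in CD80low cells.

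The difference between the genotype effects of the subsets, ko minus wt in CD80high minus ko minus wt in CD80low cells, was called for 0 of 29 members and for 0% of all genes (limma). At an unadjusted p under 0.05, 3 members differed, where 3.18% of all genes did. These were Egr3 at 0.79 ± 0.266, Klf4 at 0.65 ± 0.278 and Myc at -0.72 ± 0.285, followed by Egr2 at 0.33 ± 0.292, each with an adjusted p of 1.00. A subset difference called in 1 genotype and not in the other, as for Egr3 and Myc, was therefore not shown to differ between genotypes. Of 41 other immediate-early genes, 23 pathway genes, 36 other chaperones, 3 heat shock factor genes and 16 endoplasmic reticulum chaperones, 0 were called between ko and wt cells in either subset. At an unadjusted p under 0.05 the count was 1 early gene and 1 chaperone in CD80low and 1 early gene in CD80high cells.

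**Figure D4:**
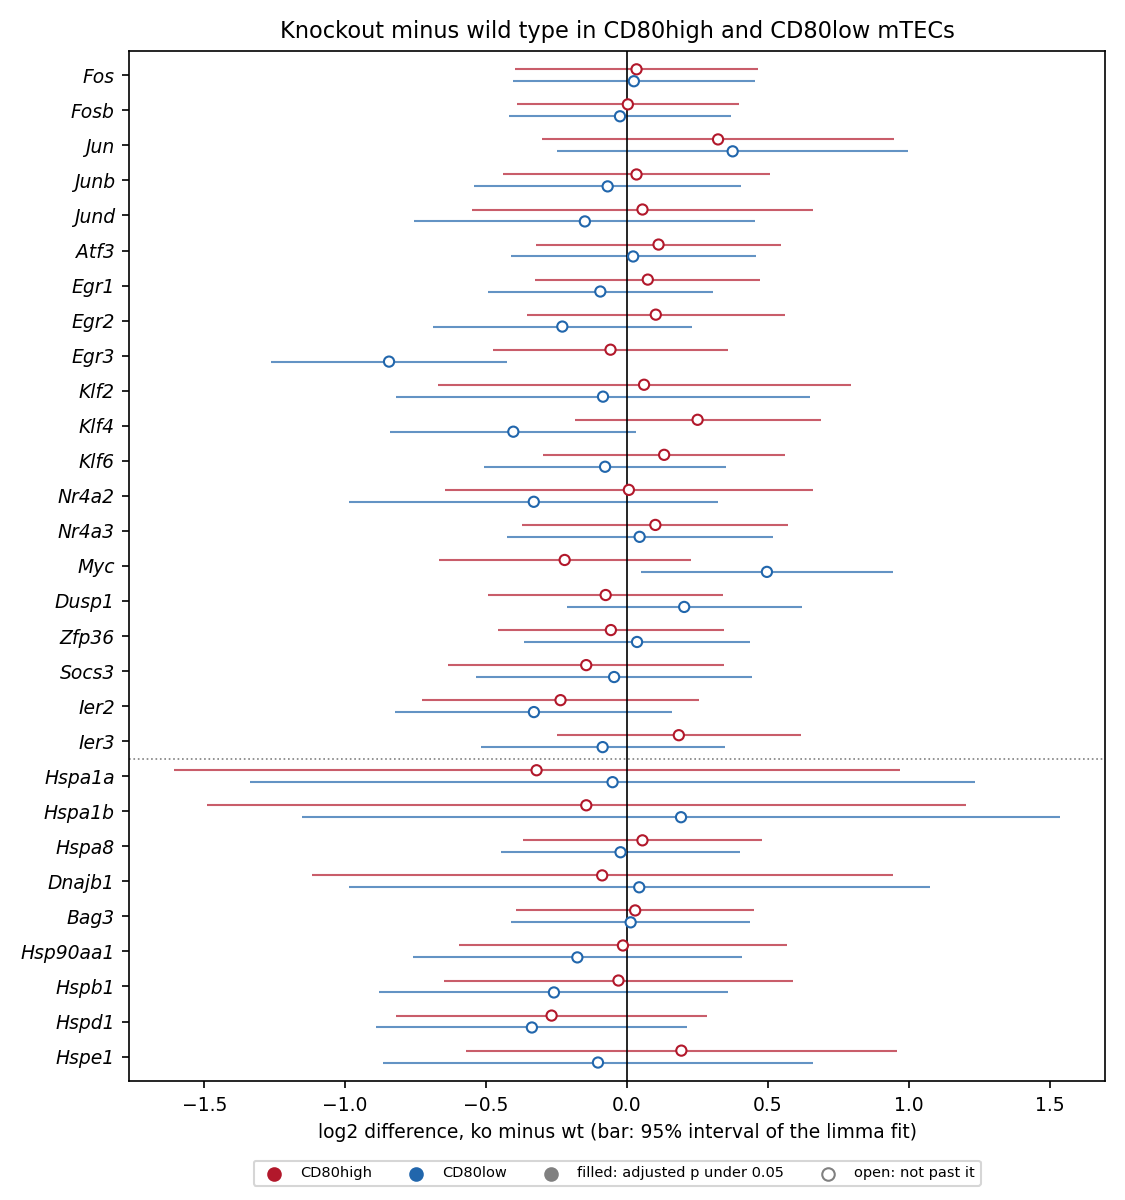
Log2 difference between ko and wt mTECs (x axis) for the 29 tested members in CD80high (red) and CD80low (blue) cells; bars are 95% intervals of the limma fit and all points are open because none passed an adjusted p of 0.05. The interval of Egr3 in CD80low cells, -1.26 to -0.43, lies left of 0. The widest bars are those of Hspa1a, Hspa1b and Dnajb1, in a fit without a term for the replicate number.

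The third comparison set replicate 2 against replicate 1, a number that the titles share across groups without saying what it marks. Most heat shock genes were lower in replicate 2 in both genotypes. Of the 9 tested, 7 were lower in replicate 2 in all 4 groups (Hspa1a, Hspa1b, Dnajb1, Hsp90aa1, Hspb1, Hspd1 and Hspe1), as was 1 of 20 immediate-early genes (Klf2), where 11.2% of all genes were lower in all 4 groups. Only Klf6 of the 29 members was higher in replicate 2 in all 4 groups (13.4% of all genes). These counts are by sign alone. Hspd1 differed by -0.03 in ko CD80high, and Hspb1 by -0.07 in ko and -0.04 in wt CD80high cells. A second Hspd1 probe gave 0.09 over CD80high cells and -0.51 over CD80low cells. The median difference of the heat shock genes was -0.16 in ko CD80high, -0.50 in wt CD80high, -0.62 in ko CD80low and -0.52 in wt CD80low cells, beside medians over all genes from -0.02 to 0.06.

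Hspa1b was at 8.06 and 7.93 in replicate 2 of ko and wt CD80high cells, against 8.93 and 9.36 in replicate 1. In CD80low cells it was at 9.29 and 8.93 in replicate 2 of ko and wt, against 10.53 and 10.50 in replicate 1. The difference was -1.57 to -0.87 over the 4 groups, which is larger than any difference between ko and wt arrays of the same number and subset. Hspa1a was at 11.14 and 11.25 in replicate 2 of ko and wt CD80high cells, against 12.51 and 13.03 in replicate 1. In CD80low cells it was at 12.34 and 12.60 in replicate 2 of ko and wt, against 13.28 and 13.12 in replicate 1. The other 2 probes of Hspa1a and the second probe of Hspa1b were also lower in replicate 2, with differences of -1.56 to -0.66 over both subsets. Because these paralogs are nearly identical, signal from 1 gene can be read by probes of the other, and this could not be checked without probe sequences.

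Dnajb1 was at 11.86 and 11.96 in replicate 2 of ko and wt CD80high cells, against 13.07 and 13.14 in replicate 1. In CD80low cells it was at 13.06 and 13.22 in replicate 2 of ko and wt, against 13.90 and 13.66 in replicate 1. The replicates of Dnajb1 did not overlap within a subset. Hspe1 was at 9.71 and 9.75 in replicate 2 of ko and wt CD80high cells, against 10.54 and 10.11 in replicate 1. In CD80low cells it was at 9.35 and 9.39 in replicate 2 of ko and wt, against 9.97 and 10.14 in replicate 1. Hspb1 differed by number in CD80low cells, with 11.27 and 11.51 in replicate 2 of ko and wt, against 11.94 and 12.22 in replicate 1. In CD80high cells its 4 arrays lay between 10.93 and 11.01.

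In CD80low cells, 2 of the 29 members were called lower in replicate 2, where 2.43% of all genes were: Hspa1b (-1.41 ± 0.185, adjusted p = 0.00587, limma) and Hspb1 (-0.69 ± 0.148, 0.0421). The Hspb1 call was lost whichever single array was left out. The next smallest p-values were those of Hspa1a (-0.73 ± 0.179, 0.0622) and Hspe1 (-0.69 ± 0.170, 0.0652). In CD80high cells, 0 members and 0% of all genes were called, while 7 members and 15.8% of all genes had an unadjusted p under 0.05. There Hspa1a differed by -1.57 ± 0.179, Dnajb1 by -1.19 ± 0.163 and Hspa1b by -1.15 ± 0.185, each with an adjusted p of 0.189, and Hspe1 by -0.60 ± 0.170 (0.205). Hspa1a was called once any 1 of the CD80low arrays was left out (0.0238). These counts rest on 2 residual degrees of freedom and on the variance prior. With no background correction, an offset of 50, the deposited values or a trended robust prior, 6 to 8 members were called in CD80low and 6 in CD80high cells, and Hspa1a, Hspa1b and Dnajb1 were among those called in CD80high cells. The SE was smaller in these settings, for Hspa1a 0.119 to 0.145 against 0.179. The share of all genes called in them is not given here, so these counts are not read as particular to the members.

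Over both subsets, a contrast added after the data were seen, 4 members were called lower in replicate 2, all heat shock genes, where 1.62% of all genes were lower. They were Hspa1b (-1.28 ± 0.131, adjusted p = 0.00237, limma), Hspa1a (-1.15 ± 0.127, 0.00346), Dnajb1 (-0.92 ± 0.115, 0.00766) and Hspe1 (-0.64 ± 0.121, 0.0388). Hspe1 and Dnajb1 were not called once any 1 of the 4 CD80high arrays was left out, nor was Hspe1 without either wt CD80low array. Hspa8 and Bag3 differed by -0.08 and -0.09, and the immediate-early genes had a median of -0.03. The test of a difference between the subsets' replicate effects called 0 members and 1.03% of all genes, with 5 members at an unadjusted p under 0.05 (16.4% of all genes). The smallest p-values in it were those of Hspa1a (-0.84 ± 0.253, adjusted p = 0.170), Hspb1 (0.63 ± 0.209, 0.201), Jun (-0.72 ± 0.294, 0.276) and Nr4a2 (-0.64 ± 0.263, 0.285).

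**Figure D5:**
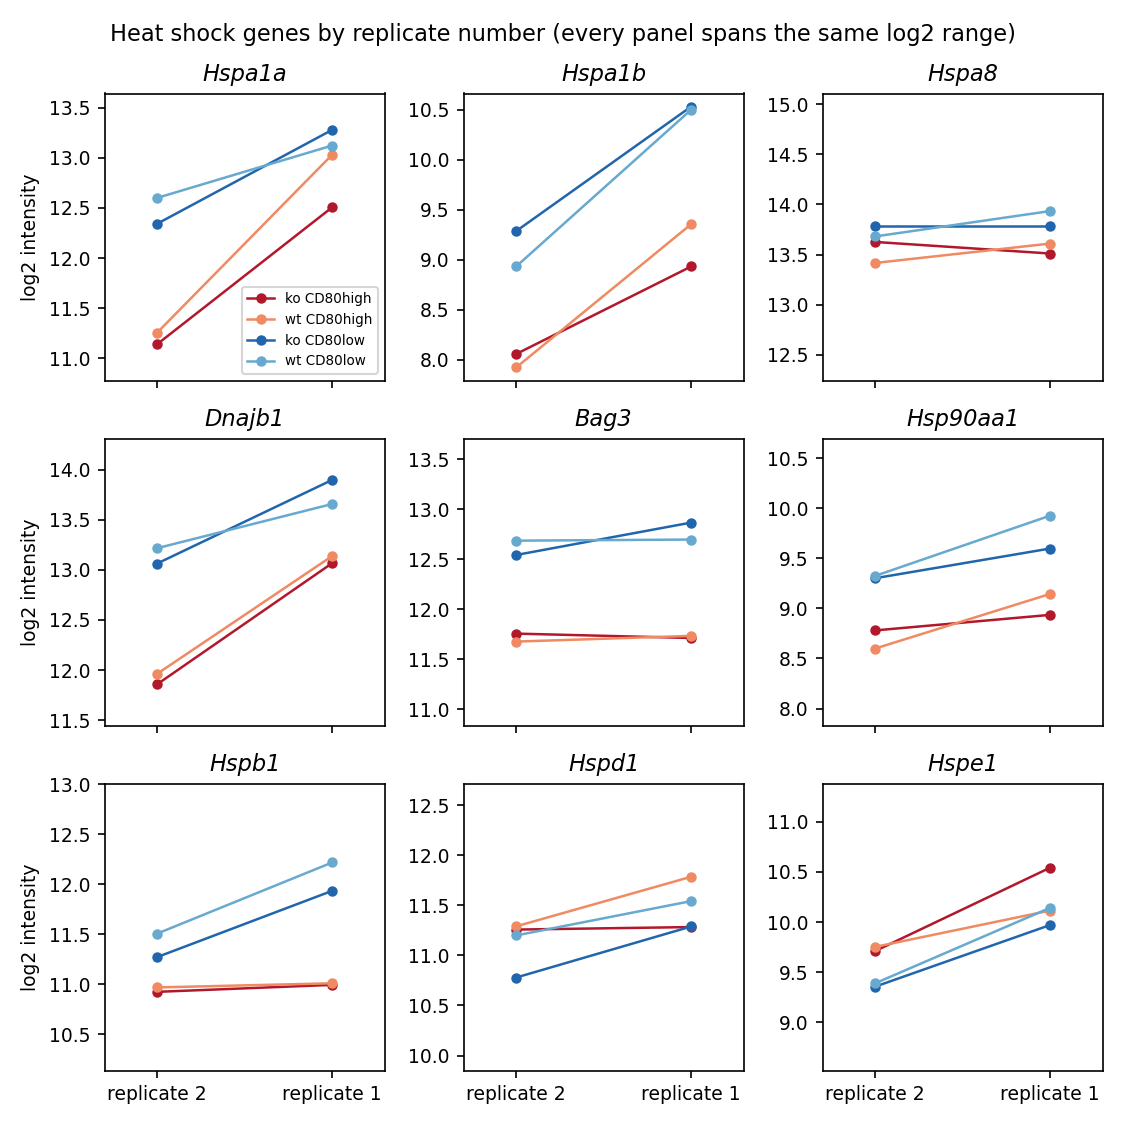
Log2 intensity (y axis) of the 9 tested heat shock genes in replicate 2 (left) and replicate 1 (right), with 1 line per group and the same span of log2 units in every panel. All 4 lines of Hspa1a, Hspa1b, Dnajb1 and Hspe1 are lower on the left. The lines of Hspa8 and Bag3 differ less, most of all by -0.32 for Bag3 in ko CD80low cells.

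Other transcripts moved with the replicate number. In CD80low cells, 11 of 13 tested thymocyte genes were called lower in replicate 2, and the list averaged 7.24 in ko and 7.28 in wt, against 9.26 and 9.28 in replicate 1. In CD80high cells the list averaged 6.67 in ko and 6.58 in wt replicate 2, against 6.87 and 6.72 in replicate 1, with 0 genes called and 3 at an unadjusted p under 0.05. Of 7 tested erythroid genes, 2 were called lower in CD80low replicate 2, the globins Hba-a1 (-3.88) and Hbb-b1 (-4.03). By sign only 3 of the 7 were lower there, and the median over the list was 0.32, so the list as a whole did not fall. Of 6 cortical TEC genes, 2 were called lower there, the chemokine gene Ccl25 (-0.81) and the thymic protease gene Prss16 (-0.72), as was the B cell gene Cd79b (-0.97). In CD80high cells 0 erythroid, cortical TEC or B cell genes were called, and 2 erythroid and 1 cortical TEC gene had an unadjusted p under 0.05. By sign, 0 of the 6 cortical TEC genes were lower in CD80high replicate 2 (median 0.17), against 5 of 6 in CD80low replicate 2. The globins were lower in replicate 2 of CD80high cells as well. Hba-a1 was at 9.57 in replicate 2 of both ko and wt CD80high cells, against 10.38 and 10.45 in replicate 1. Hbb-b1 was at 8.70 and 8.72 in replicate 2 of ko and wt CD80high cells, against 9.66 and 9.90 in replicate 1. Hspa1a, Hspa1b and Dnajb1 differed by -1.78 to -0.87 in CD80high and by -1.57 to -0.44 in CD80low cells of both genotypes, and the part of other cells in these values was not tested. Among related genes, Fkbp5, a co-chaperone of steroid receptors, differed by -1.04 in CD80low replicate 2 (adjusted p = 0.0107, limma), Dusp2, a nuclear MAP kinase phosphatase, by -0.75 (0.0423), and Arc, a gene that neuronal activity induces, by -0.68 (0.0498). Mapk9, which encodes the kinase JNK2, fell by 0.95 there (0.0147). Dusp4, another nuclear phosphatase of this family, was 1.79-fold higher in CD80low replicate 2 (0.0272). Of 36 other chaperones tested, 1 was lower and 0 higher in that subset, and of 16 endoplasmic reticulum chaperones 0 were called, with 2 at an unadjusted p under 0.05.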

How the data were processed

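Total RNA of sorted mTECs (200 ng, labelled with biotin per the labels' protocols) was hybridised to Illumina bead arrays, 2 per group. The values used are the deposited intensities, 1 per probe and array on a linear scale, which the authors had scaled by a method not given in the sources used here, with no background subtracted. A table of 8 signal columns before normalisation was not used, because no label ties its columns to samples.

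Intensities were corrected with normexp (offset 16, limma 3.58.1, R 4.3.3), quantile-normalised and log2-transformed. A probe was tested if it exceeded the array's background mode plus 1.645 SD on both arrays of at least 1 group, giving 14392 genes, and where several probes of a gene passed, the brightest on average stood for it. Probe symbols came from the platform table: 35667 probes had 1 symbol, 0 had several and 10422 had none. A limma fit of 4 group means (4 residual and 6.15 prior degrees of freedom) gave two-sided p-values adjusted by Benjamini-Hochberg over all genes. A second fit added a replicate 2 term per subset (2 residual degrees of freedom). The procedure was tested on simulated data. Motifs were searched with Python 3.11.15.

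Members with values are those past an adjusted p of 0.05 in a comparison, or the 4 with the smallest p where fewer passed; array values of the other members described were chosen after they were seen. From each related list up to 3 genes with the smallest adjusted p are named. The members and lists were chosen with earlier results of these data known. A bead array has no read depth, and the number of arrays limits precision. Alternatives changed the background step, offset, scaling, filter, prior, probe rule, arrays in the fit, replicate term and arrays left out.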

Additional observations from a re-analysis of the deposited data

How the results depend on the processing

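No member was called between ko and wt cells, or for the interaction, in any alternative run. Between ko and wt CD80high cells, Jun ranged from -0.063 without wt CD80high replicate 2 to 0.71 without wt CD80high replicate 1, against 0.32 with all arrays; these arrays lie far apart (8.59 and 9.36). Members lower in CD80high than in CD80low cells numbered 10 to 14 in ko, 12 to 17 in wt and 16 to 21 over both genotypes when 1 array was left out, and 12 to 19, 15 to 18 and 19 to 23 in the other alternatives that kept the CD80low replicate 1 arrays. Without both CD80low replicate 1 arrays the median difference over the members was -0.63 in ko, -0.67 in wt and -0.64 over both. Replicate 2 against replicate 1 gave 6 members in CD80low and 6 in CD80high cells with no background correction or an offset of 50, 8 and 6 with the deposited values, 7 and 6 with a trended robust prior, and 1 in CD80low cells with no filter. Leaving out 1 array gave 1 in CD80low and 0 to 1 in CD80high cells, the call being Hspa1a once any 1 of the CD80low arrays was left out. Over both subsets, 8 were called in each of these 4 alternatives other than the filter, and 2 to 4 without 1 array. Their difference between subsets gave 2 with no background correction, 1 with an offset of 50, 2 with the deposited values and 3 with the prior. The cause was not tested. The counts of members in this paragraph, by subset and by replicate number, stand without the share of all genes called in each setting. They are therefore not read as particular to the members.

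Same-numbered arrays deviated together within a subset (r = 0.512 in CD80low, 0.473 in CD80high) and less across subsets (0.0677 to 0.140). The fit of group means above holds neither a block shared by all arrays nor a replicate term within each subset. Its SEs and intervals for ko against wt therefore include the difference between replicate numbers within a subset. With the replicate block, 19 members (6 heat shock genes) were called in ko, 18 (5) in wt and 23 over both genotypes, and with the replicate block within subset 16, 18 and 19, against 14, 16 and 22 without it. The share of all genes called with either form is not given here, so these counts are not read as particular to the members. Neither form of the block changed a genotype call of a member. Signal near background limits Nr4a1, Ier5, Dnaja1 and Nr4a3, and 2 arrays per group limit every value. Myc (5.89 to 7.03), Nr4a2 (5.69 to 7.25) and Ier2 (5.98 to 7.28) lay above background on all 8 arrays, but at low levels.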
